A study of Macaca mulatta with 12 samples.

Results

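A set of 9 genes that modify and crosslink collagen were followed across the culture formats and oxygen conditions of a rhesus macaque cardiomyocyte experiment. They were picked by symbol: the catalytic subunits of collagen prolyl 4-hydroxylase (P4HA1, P4HA2 and P4HA3), the lysyl hydroxylases (PLOD1, PLOD2 and PLOD3) and the lysyl oxidases (LOX, LOXL1 and LOXL2). Of these 9 symbols, 8 were found among the 16745 genes of the deposited table, and PLOD1 was not analysed here. RNA was sequenced on the Ion Proton from cells labelled as cardiomyocytes derived from induced pluripotent stem cells of Macaca mulatta. The cells were kept in RPMI medium with B27 and insulin, in 4 groups of 3 libraries. Monolayer normoxia was the flat culture in normal oxygen. EHT normoxia was engineered heart tissue, cells with the same label in a 3-dimensional format, in normal oxygen. Monolayer hypoxia and EHT hypoxia were the same formats placed in anaerobic pouches for 24 hours, followed by another 24 hours after the medium was refreshed. The labels do not say when RNA was taken or whether the normoxia cultures had the same change of medium, so oxygen and medium change cannot be told apart. They do not say whether replicates came from separate differentiations or from 1 line, so p-values cover only the spread between these libraries.

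Collagen chains are modified in the endoplasmic reticulum before they fold. Prolyl 4-hydroxylases convert prolines to 4-hydroxyproline, which stabilises the triple helix, and lysyl hydroxylases convert lysines to hydroxylysine, the base of stronger crosslinks and of attached sugars. Both enzyme families use oxygen, iron, 2-oxoglutarate and ascorbate. Outside the cell, lysyl oxidases are copper enzymes that turn lysine and hydroxylysine side chains into aldehydes, from which crosslinks form between collagen molecules and between elastin molecules. In the heart these reactions set the stiffness of the interstitial matrix. In human cells P4HA1, P4HA2, PLOD2, LOX and LOXL2 are known targets of the hypoxia-inducible factors.

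The libraries held 4154346 to 11298841 reads. The deposited values are variance-stabilised and on a log2 scale. Each library was centred on its median over the 12084 genes tested, because these medians ran from 6.98 to 8.75, the highest in monolayer normoxia replicate 3. Centring moved the log2 difference of every gene by 0.74 between EHT and monolayer in normoxia, by 0.04 in hypoxia, by 0.55 between hypoxia and normoxia in monolayer, by -0.15 in EHT and by -0.70 in the interaction. Each difference below is the log2 difference of group means ± its SE with n = 3 libraries per group, tested with limma over all genes tested, and a gene was called at an adjusted p under 0.05. All 8 genes passed the filter on low values. P4HA3 had the fewest reads, 51 to 321 per library, and each of the others had at least 416.

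Markers of cell types also differed between the groups. The 9 cardiomyocyte markers together took 0.0431 to 0.267% of reads in monolayer normoxia, 0.391 to 0.433% in monolayer hypoxia, 0.00128 to 0.0141% in EHT normoxia and 0.00197 to 0.0584% in EHT hypoxia. In EHT 7 of 9 were lower than in monolayer in normoxia and 8 of 9 in hypoxia, MYBPC3 had 0 reads in both EHT libraries numbered 3, and MYH6 and TNNI3 had 0 in EHT hypoxia replicate 3. The EHT libraries thus carried little RNA of these 9 markers of the cell type on their label. Monolayer normoxia was not clear of them: its lowest library, at 0.0431%, lay below the highest of EHT hypoxia, at 0.0584%. Fibroblast markers, of which 9 of 10 were measured, took 0.454 to 1.08%, 0.356 to 0.405%, 0.555 to 0.696% and 0.531 to 0.875% in the same order of groups. The 7 smooth muscle and pericyte markers took 0.185 to 0.374%, 0.526 to 0.608%, 0.246 to 0.315% and 0.158 to 0.171%. Epithelial markers, 5 of 7 measured, took 0.0865 to 0.472% in monolayer normoxia and at most 0.0073% in any other library. Endothelial markers (5 tested), epicardial markers (6) and chondrocyte and bone markers (6) each took at most 0.0421% of any library. In hypoxia 5 of 9 cardiomyocyte, 5 of 7 smooth muscle and 5 of 9 fibroblast markers rose in monolayer, where 3 fibroblast markers fell. In EHT 2, 1 and 1 rose, and 1 smooth muscle and 1 fibroblast marker fell. These counts depended on the scaling: on the deposited values 6 cardiomyocyte markers rose in each format, 2 smooth muscle markers rose in monolayer and 1 in EHT, and 2 fibroblast markers rose and 3 fell, all in monolayer. Between formats in hypoxia 6 of the 7 smooth muscle markers were lower in EHT. In bulk RNA, fewer cells of a type and less RNA per cell cannot be told apart, and the part of cell makeup in the results below was not tested.

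Hypoxia went with higher levels of most of these enzymes in both formats. In monolayer 7 of the 8 genes rose, all but LOXL1, against 27.8% of all genes tested that were higher and 18.6% that were lower. None of the 8 was lower by limma at the threshold. Of them 1, LOXL1, had an unadjusted p under 0.05, and voom on the recovered reads called it. CPM, the reads of a gene scaled to the library total, were not tested. From monolayer normoxia to hypoxia mean CPM went from 568 to 1694 for P4HA1, 512 to 854 for P4HA2 and 11.2 to 30.5 for P4HA3. For PLOD2 it went from 173 to 714, for PLOD3 143 to 189 and for LOX 214 to 1952. For LOXL2 it went from 423 to 2411, and for LOXL1 from 227 to 111. These rises were smaller than the folds below, which rest on centring. In EHT 5 rose (P4HA1, P4HA2, PLOD2, LOX and LOXL2) and LOXL1 fell, against 19.5% of all genes higher and 16.0% lower. Between formats in normoxia PLOD2, PLOD3, LOXL1 and LOXL2 were higher in EHT, 4 of 8 against 22.8% of all genes. None was lower by limma, also at an unadjusted p under 0.05, and voom called 1, P4HA1, against 18.5% of all genes lower. After hypoxia P4HA1 and P4HA3 were lower in EHT, 2 of 8 against 19.7% of all genes, a share not far from that background, and none was higher (18.4% of all genes; 0 at an unadjusted p under 0.05 and 0 by voom).

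The response to hypoxia was smaller, or more negative, in EHT for 4 of the 8 genes by the interaction of culture and oxygen. These were P4HA3, PLOD3, LOXL1 and LOXL2, against 14.1% of all genes with a lower interaction. None had a higher one (10.3% of all genes; 0 of the 8 at an unadjusted p under 0.05 and 0 by voom). The comparisons share groups, so their counts are not independent of each other. On the deposited values without centring, where all genes shared 1 trended variance, all 23 of these results kept their direction and 13 no longer passed, among them the 4 interactions.

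**Figure D1:**
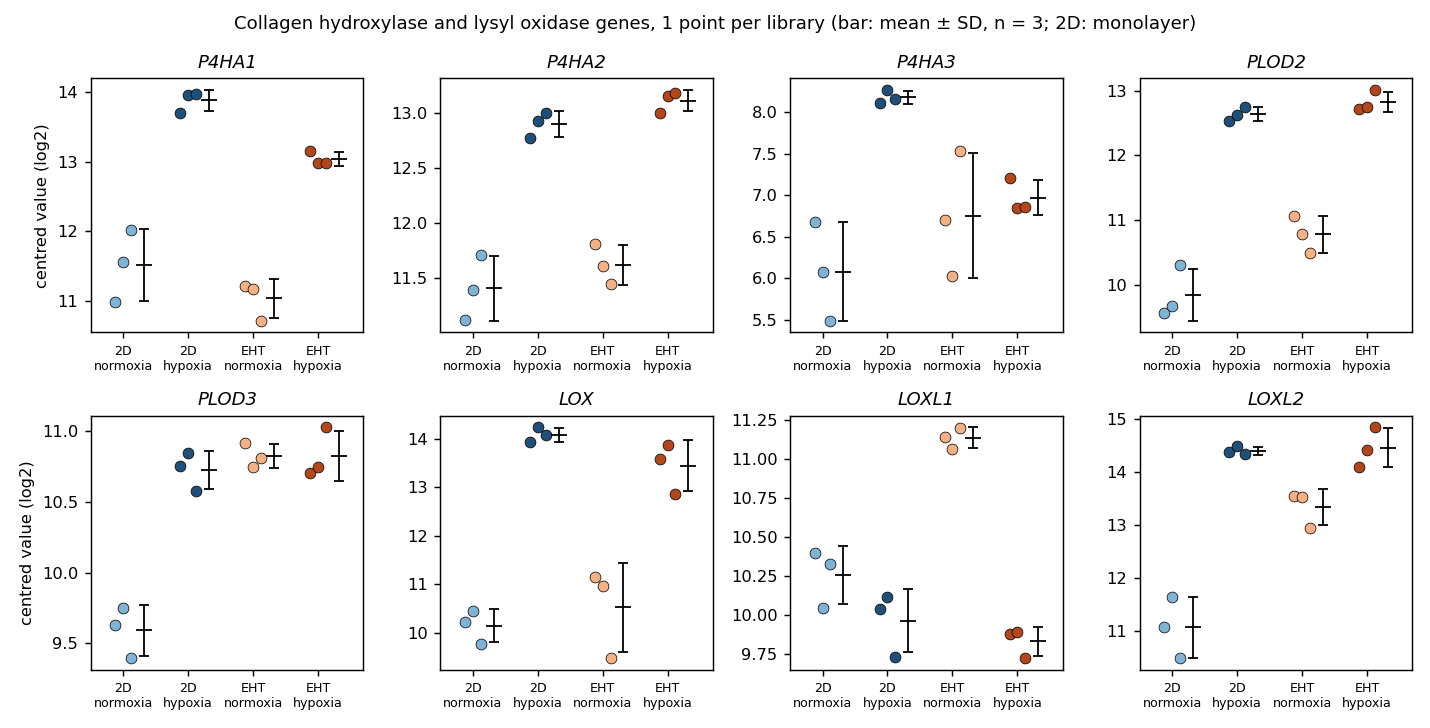
Centred log2 value (vertical axis) of each of the 8 genes in every library, by group, with 1 point per library and the mean ± SD of n = 3 (2D is monolayer). LOX and PLOD2 lie higher in all hypoxia libraries than in any normoxia library, while LOXL1 is highest in the 3 EHT normoxia libraries.

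P4HA1 encodes the main catalytic subunit of collagen prolyl 4-hydroxylase in many tissues. Its centred log2 values were 10.98, 11.56 and 12.02 in monolayer normoxia, 13.71, 13.96 and 13.97 in monolayer hypoxia, 11.22, 11.18 and 10.72 in EHT normoxia, and 13.16, 12.98 and 12.98 in EHT hypoxia. Monolayer hypoxia was highest and EHT hypoxia second, without overlap, and the normoxia groups of the 2 formats overlapped. The rise in hypoxia was 2.36 ± 0.22 in monolayer (5.14-fold, adjusted p = 5.4e-06) and 2.00 ± 0.22 in EHT (adjusted p = 3.5e-05). These rises differed by -0.36 ± 0.32 (95% interval -1.05 to 0.33, adjusted p = 0.446). In hypoxia the level was lower in EHT by -0.84 ± 0.22 (adjusted p = 0.0105). This was -0.53 under quantile normalization (adjusted p = 0.0895) and -0.88 on the deposited values (adjusted p = 0.269), and neither passed. In normoxia the difference of -0.48 ± 0.22 did not pass (adjusted p = 0.101). That difference was called without monolayer normoxia replicate 1 (-0.75, adjusted p = 0.0092), under quantile normalization (-0.89, adjusted p = 0.0070), with voom (-0.56, adjusted p = 0.0405) and on the deposited values (-1.22, adjusted p = 0.0453).

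P4HA2 encodes a further catalytic subunit, abundant in cartilage and bone. Its values were 11.13, 11.39 and 11.71 in monolayer normoxia, 12.77, 12.93 and 13.00 in monolayer hypoxia, 11.81, 11.61 and 11.45 in EHT normoxia, and 13.00, 13.15 and 13.18 in EHT hypoxia. Every hypoxia library lay above every normoxia library in each format, and the normoxia groups overlapped. The rise was 1.49 ± 0.16 in monolayer (2.80-fold, adjusted p = 1.3e-05) and 1.48 ± 0.16 in EHT (2.80-fold, adjusted p = 2.4e-05). The interaction was -0.00 ± 0.22, with a 95% interval of -0.49 to 0.49 (adjusted p = 0.997), and its sign changed with the scaling. It was 0.54 under quantile normalization (adjusted p = 0.0715), 0.70 on the deposited values (adjusted p = 0.584) and 0.026 with voom (adjusted p = 0.940). Between formats P4HA2 differed by 0.21 ± 0.16 in normoxia (95% interval -0.13 to 0.56, adjusted p = 0.306) and by 0.21 ± 0.16 in hypoxia (95% interval -0.13 to 0.56, adjusted p = 0.318). The monolayer rise was 0.94 on the deposited values, where it did not pass (adjusted p = 0.150).

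P4HA3 encodes another catalytic subunit. Its values were 6.67, 6.07 and 5.49 in monolayer normoxia, 8.11, 8.26 and 8.16 in monolayer hypoxia, 6.70, 6.03 and 7.53 in EHT normoxia, and 7.21, 6.84 and 6.86 in EHT hypoxia. The monolayer hypoxia libraries stood above all others. EHT hypoxia lay wholly above monolayer normoxia, and the spread EHT normoxia libraries overlapped both. P4HA3 rose in monolayer by 2.10 ± 0.35 (4.27-fold, adjusted p = 3.7e-04), while in EHT the difference was 0.22 ± 0.35 (95% interval -0.54 to 0.97, adjusted p = 0.673). The interaction was -1.88 ± 0.49 (adjusted p = 0.0151). In hypoxia P4HA3 was lower in EHT by -1.21 ± 0.35 (adjusted p = 0.0163). This call did not pass without monolayer hypoxia replicate 2 (-1.16, adjusted p = 0.0547) or on the deposited values (-1.24, adjusted p = 0.0771). The normoxia difference of 0.67 ± 0.35 did not pass (adjusted p = 0.140), but leaving out EHT normoxia replicate 2 gave 1.03 (adjusted p = 0.0319).

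PLOD2 encodes the lysyl hydroxylase that acts on the telopeptides, the chain ends where crosslinks form. Its values were 9.55, 9.67 and 10.30 in monolayer normoxia, 12.54, 12.63 and 12.75 in monolayer hypoxia, 11.07, 10.78 and 10.49 in EHT normoxia, and 12.72, 12.75 and 13.01 in EHT hypoxia. The hypoxia groups overlapped each other and stood above EHT normoxia, which stood above monolayer normoxia. PLOD2 rose in hypoxia by 2.80 ± 0.20 in monolayer (6.95-fold, adjusted p = 5.8e-07) and by 2.05 ± 0.20 in EHT (4.14-fold, adjusted p = 1.2e-05). In normoxia it was higher in EHT by 0.94 ± 0.20 (1.91-fold, adjusted p = 0.00239), and by 0.20 on the deposited values (adjusted p = 0.781). In hypoxia the formats differed by 0.19 ± 0.20 (95% interval -0.24 to 0.62, adjusted p = 0.473). The interaction of -0.75 ± 0.28 did not pass (adjusted p = 0.0680). It passed without any 1 of 3 libraries, namely monolayer normoxia replicate 3 (-0.98, adjusted p = 0.0118), EHT normoxia replicate 3 (-0.89, adjusted p = 0.0363) and EHT hypoxia replicate 3 (-0.84, adjusted p = 0.0364), and with array weights (-0.91, adjusted p = 0.0044).

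PLOD3 encodes a lysyl hydroxylase that also transfers sugars to hydroxylysine. Its values were 9.63, 9.75 and 9.39 in monolayer normoxia, 10.76, 10.85 and 10.58 in monolayer hypoxia, 10.92, 10.75 and 10.81 in EHT normoxia, and 10.70, 10.75 and 11.03 in EHT hypoxia. Monolayer normoxia was lowest, and the other 3 groups overlapped. PLOD3 rose in monolayer by 1.14 ± 0.13 (2.20-fold, adjusted p = 2.7e-05), and in EHT the difference was -0.00 ± 0.13 (95% interval -0.29 to 0.29, adjusted p = 0.9997). In CPM, not tested, PLOD3 was 120 to 162 in monolayer normoxia and 170 to 199 in monolayer hypoxia. In EHT it was 240 to 280 in normoxia and 206 to 235 in hypoxia. The interaction was -1.14 ± 0.19 (adjusted p = 0.00131). In normoxia PLOD3 was higher in EHT by 1.24 ± 0.13 (2.36-fold, adjusted p = 2.0e-05), and in hypoxia the difference was 0.10 ± 0.13 (95% interval -0.19 to 0.39, adjusted p = 0.589). Without centring the called differences were 0.59 for hypoxia in monolayer (adjusted p = 0.388) and 0.50 for EHT in normoxia (adjusted p = 0.444).

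LOX encodes lysyl oxidase, which crosslinks collagen and elastin. Its values were 10.21, 10.44 and 9.77 in monolayer normoxia, 13.94, 14.24 and 14.08 in monolayer hypoxia, 11.15, 10.96 and 9.47 in EHT normoxia, and 13.60, 13.88 and 12.86 in EHT hypoxia. The hypoxia groups stood above the normoxia groups, monolayer hypoxia was highest, and replicate 3 was the lowest library in both EHT groups. LOX rose in hypoxia by 3.95 ± 0.38 in monolayer (15.4-fold, adjusted p = 5.6e-06) and by 2.92 ± 0.38 in EHT (7.57-fold, adjusted p = 9.4e-05). These 2 values were the largest hypoxia differences among the 8 genes in their format. Between formats LOX differed by 0.39 ± 0.38 in normoxia (adjusted p = 0.440) and by -0.64 ± 0.38 in hypoxia (adjusted p = 0.199). The interaction was -1.02 ± 0.53 (95% interval -2.18 to 0.13, adjusted p = 0.183). EHT normoxia replicate 3 decided 2 of these values: without it the normoxia difference was 0.91 (adjusted p = 0.0206) and the interaction -1.55 (adjusted p = 0.0099). With array weights the interaction was -1.003 (adjusted p = 0.0433).

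LOXL1 encodes a lysyl oxidase that in mice is needed for elastic fibres. Its values were 10.40, 10.04 and 10.32 in monolayer normoxia, 10.04, 10.11 and 9.73 in monolayer hypoxia, 11.14, 11.06 and 11.20 in EHT normoxia, and 9.88, 9.89 and 9.72 in EHT hypoxia. The EHT normoxia libraries were highest, and in the order of the other 3 groups each overlapped the next. LOXL1 fell in EHT by 1.30 ± 0.13 in hypoxia (adjusted p = 1.9e-05), while in monolayer the difference of -0.29 ± 0.13 did not pass (adjusted p = 0.0908). In CPM, not tested, LOXL1 was 200 to 253 in monolayer normoxia and 93.5 to 120 in monolayer hypoxia, without overlap. The interaction was -1.01 ± 0.19 (adjusted p = 0.00258). In normoxia LOXL1 was higher in EHT by 0.88 ± 0.13 (1.84-fold, adjusted p = 2.6e-04), and in hypoxia it differed by -0.13 ± 0.13 (95% interval -0.42 to 0.16, adjusted p = 0.465). On the deposited values the call in normoxia was 0.14 (adjusted p = 0.847) and the fall in EHT was -1.15 (adjusted p = 0.113). The monolayer difference was called under quantile normalization (-0.81, adjusted p = 2.8e-04), with voom (-0.39, adjusted p = 0.0342), on median-of-ratios scaled reads (-0.39, adjusted p = 0.0370), with the stricter filter (-0.36, adjusted p = 0.0405) and when monolayer normoxia replicate 2 was left out (-0.40, adjusted p = 0.0388).

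LOXL2 encodes a lysyl oxidase that acts on collagen IV of basement membranes and is raised in fibrotic tissue. Its values were 11.07, 11.63 and 10.48 in monolayer normoxia, 14.36, 14.48 and 14.34 in monolayer hypoxia, 13.54, 13.52 and 12.95 in EHT normoxia, and 14.10, 14.42 and 14.84 in EHT hypoxia. The hypoxia groups overlapped each other, EHT normoxia lay below them and monolayer normoxia was lowest. LOXL2 rose in hypoxia by 3.33 ± 0.27 in monolayer (10.1-fold, adjusted p = 2.1e-06) and by 1.12 ± 0.27 in EHT (2.17-fold, adjusted p = 0.0071). The EHT rise was 0.64 under quantile normalization (adjusted p = 0.0943) and 1.27 on the deposited values (adjusted p = 0.0907), where it did not pass. The interaction was -2.21 ± 0.39 (adjusted p = 0.00170). In normoxia LOXL2 was higher in EHT by 2.27 ± 0.27 (4.83-fold, adjusted p = 4.4e-05), the largest normoxia difference between formats among the 8 genes. In hypoxia the formats differed by 0.06 ± 0.27 (95% interval -0.54 to 0.65, adjusted p = 0.887).

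**Figure D2:**
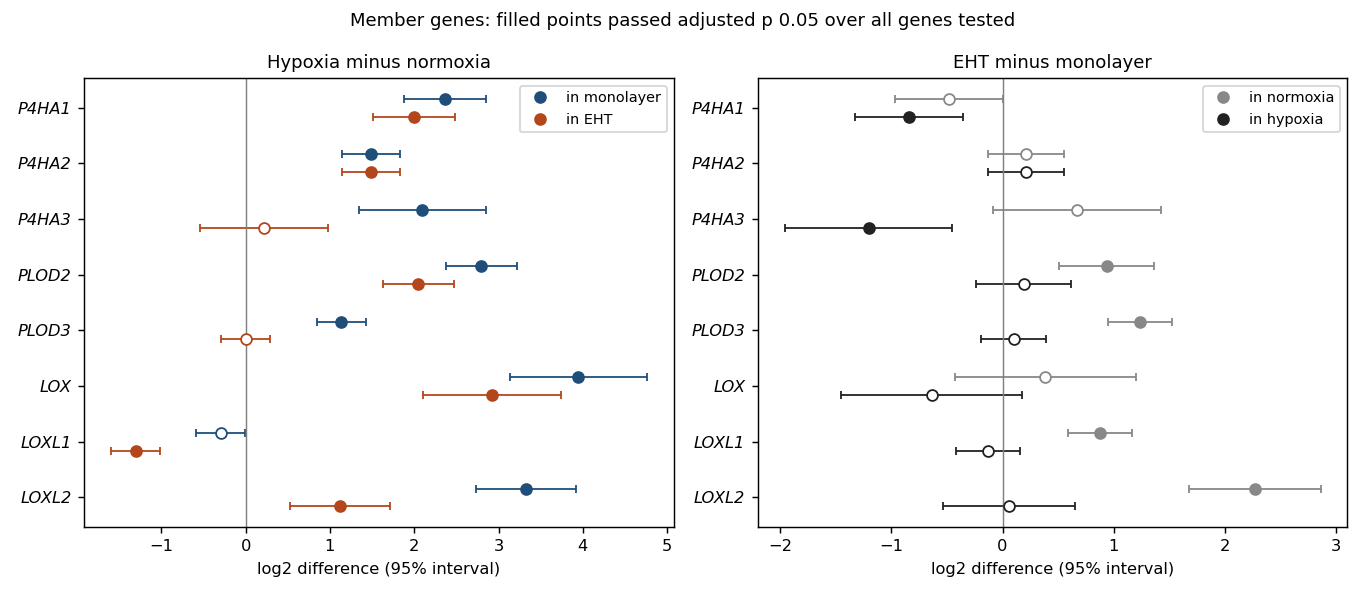
Log2 differences (horizontal axis) with 95% intervals for the 8 genes in each comparison, filled where the gene passed an adjusted p of 0.05 over all genes tested. The hypoxia differences of LOXL2 (3.33 in monolayer, 1.12 in EHT), PLOD3 (1.14 and -0.00) and P4HA3 (2.10 and 0.22) lie apart. Those of P4HA2 (1.49 and 1.48) coincide on the centred scale.

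Ratios of 2 enzymes within a library do not depend on how libraries are scaled, and they show whether members of 1 family moved by the same amount. They are ratios of reads, not per length, so only their differences between groups are read. Over both formats, the log2 ratio of P4HA1 to P4HA2 was 0.70 higher in hypoxia, and that of PLOD2 to PLOD3 1.87 higher. LOX to LOXL1 was 4.26 higher and LOX to LOXL2 1.22 higher. Each of these 4 differences had p = 0.005 in a two-sided exact permutation test within formats, the smallest it can give. The adjusted p was 0.02 for each, over 24 tests of 4 ratios. With 3 against 3 libraries within 1 format the smallest p is 0.1 (adjusted p = 0.133, exact permutation test), so no single format could pass. In hypoxia, then, P4HA1, PLOD2 and LOX each gained on the family member they were set against.

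The ratio of LOX to LOXL1 was -0.19, 0.40 and -0.56 in monolayer normoxia, 3.93, 4.15 and 4.37 in monolayer hypoxia, 0.01, -0.11 and -1.75 in EHT normoxia, and 3.75, 4.02 and 3.16 in EHT hypoxia. No hypoxia library came near a normoxia library. The ratio of PLOD2 to PLOD3 was -0.08, -0.08 and 0.91 in monolayer normoxia, 1.79, 1.79 and 2.18 in monolayer hypoxia, 0.15, 0.03 and -0.33 in EHT normoxia, and 2.03, 2.01 and 1.99 in EHT hypoxia. It also separated hypoxia from normoxia, and its groups overlapped between formats. Across formats, over both oxygen conditions, it differed by -0.11 (exact permutation p = 0.725, adjusted p = 0.725), and LOX to LOXL1 by -0.50 (exact permutation p = 0.17, adjusted p = 0.215).

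Both other ratios were lower in EHT. P4HA1 to P4HA2 was -0.14, 0.17 and 0.31 in monolayer normoxia, 0.94, 1.04 and 0.98 in monolayer hypoxia, -0.60, -0.44 and -0.74 in EHT normoxia, and 0.16, -0.17 and -0.20 in EHT hypoxia, and the formats did not overlap within an oxygen condition. The difference over both conditions was -0.88 (exact permutation p = 0.005, adjusted p = 0.02). LOX to LOXL2 was -0.87, -1.20 and -0.72 in monolayer normoxia, -0.42, -0.23 and -0.26 in monolayer hypoxia, -2.40, -2.58 and -3.51 in EHT normoxia, and -0.50, -0.54 and -1.98 in EHT hypoxia. EHT replicate 3 was lowest in both oxygen conditions. The difference between formats was -1.30 (exact permutation p = 0.005, adjusted p = 0.02). Without monolayer hypoxia replicate 1, 2 or 3 it was -1.33, -1.28 and -1.29 with adjusted p of 0.06, 0.08 and 0.08 (exact permutation). The hypoxia difference of 1.22 in this ratio was 1.05 without EHT normoxia replicate 3 (adjusted p = 0.1, exact permutation).

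**Figure D3:**
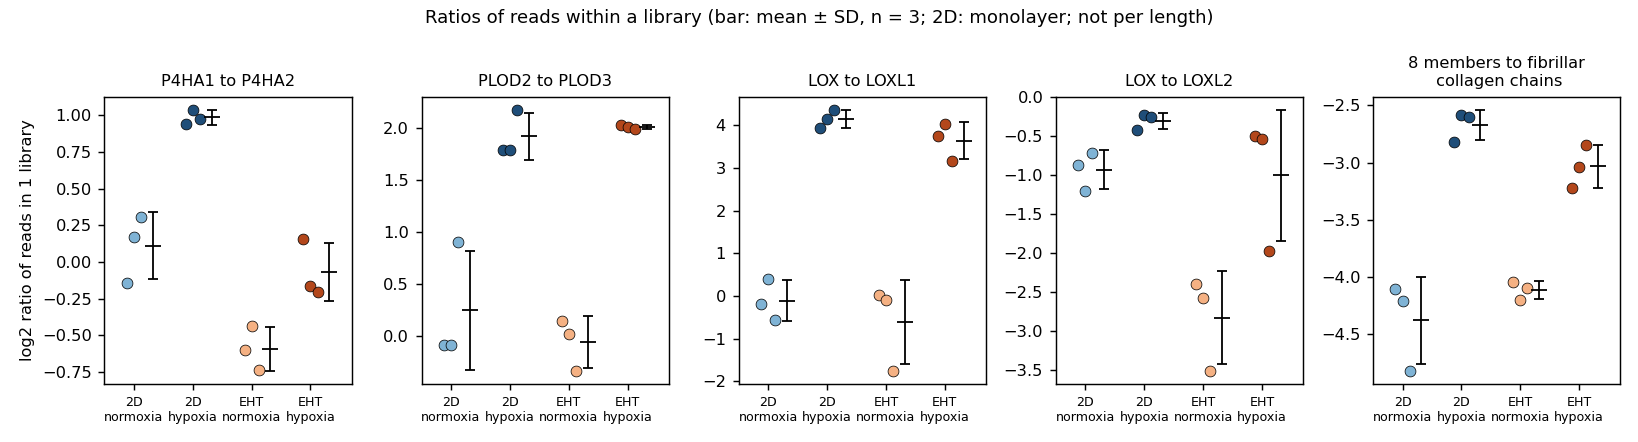
Log2 ratio of reads of 2 genes, or of the 8 genes together to 8 fibrillar collagen chains, within each library (vertical axis), by group, with 1 point per library and the mean ± SD of n = 3 (2D is monolayer). LOX to LOXL1 runs from -1.75 to 0.40 in normoxia and from 3.16 to 4.37 in hypoxia.

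The 8 genes together took 0.227 ± 0.026% of reads in monolayer normoxia, 0.796 ± 0.023% in monolayer hypoxia, 0.336 ± 0.037% in EHT normoxia and 0.742 ± 0.026% in EHT hypoxia (SD, n = 3). Of 11 fibrillar collagen chains listed, 8 were measured, and COL1A2, COL5A3 and COL27A1 were not. The 8 measured took 4.88 ± 1.60%, 5.06 ± 0.32%, 5.81 ± 0.71% and 6.10 ± 0.71% of reads in the same order. The log2 ratio of enzyme reads to collagen chain reads averaged -4.38, -2.67, -4.11 and -3.03. It was 1.71 higher in hypoxia in monolayer and 1.08 higher in EHT. A sum over chosen genes has no test here.

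Other genes of collagen modification were counted from lists. Of all genes tested, 22.8% were higher and 18.5% lower in EHT in normoxia, and 18.4% and 19.7% in hypoxia. With hypoxia 27.8% rose and 18.6% fell in monolayer, and 19.5% rose and 16.0% fell in EHT. The interaction was higher for 10.3% and lower for 14.1%. These shares are the background for the list counts, those of markers included. The median log2 difference over all genes tested was 0.07 for EHT in normoxia, -0.02 for EHT in hypoxia, 0.07 for hypoxia in monolayer, 0.03 for hypoxia in EHT and -0.08 for the interaction. Of 11 partner genes, which include the shared beta subunit, the prolyl 3-hydroxylases and the collagen galactosyltransferases, 8 were higher and 2 lower in EHT in normoxia (median 0.75). FKBP10, a chaperone that assists telopeptide lysyl hydroxylation, was higher by 1.07 ± 0.16 (adjusted p = 1.8e-04), and P3H2, a prolyl 3-hydroxylase, was lower by -1.33 ± 0.20 (adjusted p = 1.9e-04). COLGALT2, a collagen galactosyltransferase, was also lower, at -1.71 ± 0.47 (adjusted p = 0.0111). Its mean centred value in EHT normoxia was 4.80, against a lowest deposited value of 3.00. In hypoxia 1 partner was higher in EHT, P3H2 at 0.81 ± 0.20 (adjusted p = 0.0061), and 3 were lower, among them TMEM38B, an ion channel of the endoplasmic reticulum, at -1.06 ± 0.24 (adjusted p = 0.0047; list median -0.11).

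In hypoxia 6 of the 11 partners rose in monolayer (median 0.60). FKBP10 rose by 1.43 ± 0.16 (adjusted p = 1.4e-05) and P3H1, a prolyl 3-hydroxylase, by 1.27 ± 0.17 (adjusted p = 6.2e-05). P4HB, the beta subunit shared by the collagen prolyl 4-hydroxylases, rose by 1.56 ± 0.20 (adjusted p = 4.4e-05), but by 0.43 under quantile normalization (adjusted p = 0.0746). In EHT 2 of the 11 rose and 2 fell (median -0.09), shares close to the 19.5% and 16.0% of all genes. The rises were those of P3H2, 1.72 ± 0.20 (adjusted p = 3.7e-05), and P4HB, 0.79 ± 0.20 (adjusted p = 0.0077; 0.25 with adjusted p = 0.322 under quantile normalization). The falls were those of TMEM38B, -2.12 ± 0.24 (adjusted p = 4.0e-05), and P3H4, -0.85 ± 0.14 (adjusted p = 4.5e-04). P3H4 is a partner of lysyl hydroxylase 1. TMEM38B had mean centred values of 6.92 in EHT normoxia and 4.79 in EHT hypoxia, against a lowest deposited value of 3.00. The interaction was higher for P3H2, at 2.14 ± 0.28 (adjusted p = 3.0e-04), and lower for 5 partners, TMEM38B at -2.11 ± 0.34 (adjusted p = 0.00113), P3H1 at -1.36 ± 0.24 (adjusted p = 0.00164) and P3H4 at -1.05 ± 0.19 (adjusted p = 0.00228) among them. Without centring, 2 partners were lower in EHT in normoxia and 1 in hypoxia, 1 rose and 1 fell in EHT hypoxia, 1 had a higher interaction, and no other partner result passed.

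**Figure D4:**
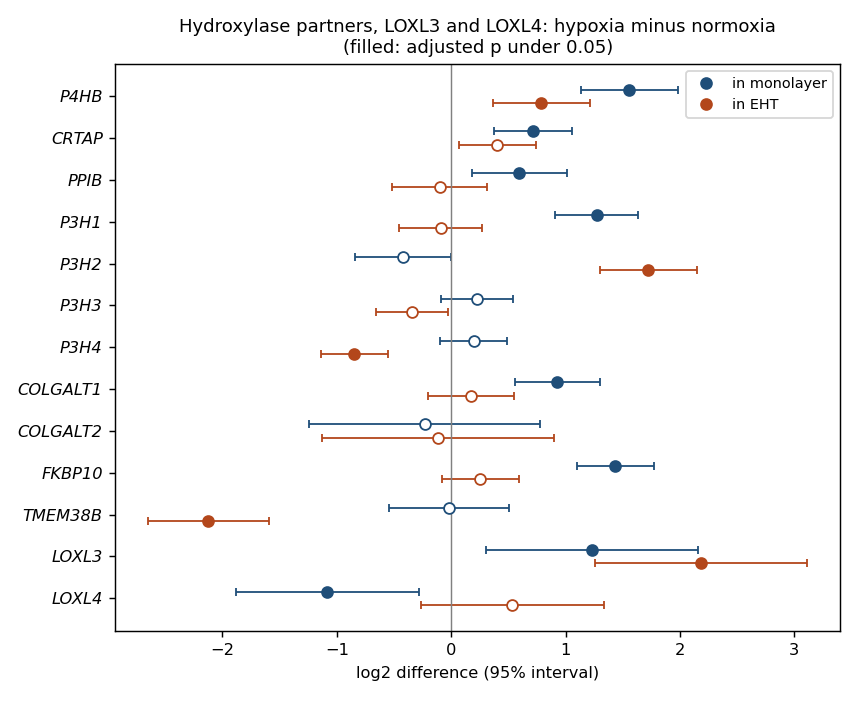
Log2 differences (horizontal axis) with 95% intervals for the partner genes and the lysyl oxidases LOXL3 and LOXL4, filled where the gene passed an adjusted p of 0.05 over all genes tested. P3H2 (1.72 in EHT) and TMEM38B (-2.12 in EHT) move in opposite directions in hypoxic EHT.

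Genes that remove propeptides from procollagen or activate lysyl oxidase were counted next. Of 12 tested, 6 rose in monolayer hypoxia (median 1.01), and in EHT the single call was a fall (median -0.07), of ADAMTS14, a procollagen protease, at -1.53 ± 0.31 (adjusted p = 0.00241). BMP1, the protease that trims procollagen and releases active lysyl oxidase, rose in monolayer by 1.35 ± 0.18 (adjusted p = 6.3e-05) with an interaction of -1.62 ± 0.25 (adjusted p = 8.3e-04). FBLN5, an elastic fibre protein that binds LOXL1 in mice, rose there by 2.48 ± 0.26 (adjusted p = 1.1e-05) with an interaction of -2.68 ± 0.37 (adjusted p = 4.3e-04). EFEMP2, which brings lysyl oxidase to elastic fibres, rose by 1.73 ± 0.17 (adjusted p = 6.7e-06) with an interaction of -1.40 ± 0.24 (adjusted p = 0.00148). In all, 7 of the 12 interactions were lower (median -1.30).

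Between formats in normoxia 6 of these 12 were higher in EHT and 1 lower (median 0.87), PCOLCE, an enhancer of procollagen cleavage, by 1.56 ± 0.24 (adjusted p = 2.5e-04). In hypoxia 5 were lower (median -0.94), FBLN5 at -2.07 ± 0.26 (adjusted p = 1.0e-04), ADAMTS3, a related protease, at -1.53 ± 0.30 (adjusted p = 0.00184) and BMP1 at -0.85 ± 0.18 (adjusted p = 0.00268) among them. Without centring, 1 was lower in EHT in normoxia and 4 in hypoxia, 3 rose in monolayer hypoxia, 2 had a lower interaction, and no other result of the list passed.

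The remaining lysyl oxidases measured were LOXL3 and LOXL4. LOXL3 rose in EHT hypoxia by 2.19 ± 0.43 (adjusted p = 0.00181). In monolayer it rose by 1.23 ± 0.43 (adjusted p = 0.0321) and LOXL4 fell by 1.08 ± 0.37 (adjusted p = 0.0293). Neither monolayer call was stable. LOXL3 did not pass on the deposited values (0.68, adjusted p = 0.308), under quantile normalization (0.88, adjusted p = 0.121), with no mean-variance trend (adjusted p = 0.0510) or with robust moderation (adjusted p = 0.0514). It also did not pass without monolayer normoxia replicate 1 (0.70, adjusted p = 0.145) or when any 1 of the monolayer hypoxia libraries was left out (adjusted p = 0.0722 to 0.0778). LOXL4 did not pass without monolayer normoxia replicate 2 (-0.86, adjusted p = 0.118), monolayer hypoxia replicate 2 (-0.94, adjusted p = 0.104) or monolayer hypoxia replicate 3 (-1.09, adjusted p = 0.0659). In normoxia LOXL4 was lower in EHT at -1.36 ± 0.37 (adjusted p = 0.0110), which became -1.14 when monolayer normoxia replicate 2 was left out (adjusted p = 0.0526).

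The fibrillar collagen chains are the main substrates of these enzymes, and COL1A2, COL5A3 and COL27A1 were not measured. Of 8 chains, 4 rose and 1 fell in monolayer hypoxia (median 1.09) and 2 rose in EHT hypoxia (median 0.65), COL5A1, a collagen V chain, by 1.16 ± 0.16 (adjusted p = 7.2e-05) and 0.81 ± 0.16 (adjusted p = 0.00159). Under quantile normalization these values of COL5A1 were 0.07 (adjusted p = 0.763) and 0.46 (adjusted p = 0.0508), with 2 chains lower in monolayer and 1 higher in EHT. In normoxia 2 chains were higher and 1 lower in EHT (median -0.05), and in hypoxia 2 were lower (median 0.07). Under quantile normalization these counts turned, to 3 lower in normoxia and to 2 higher and 1 lower in hypoxia. COL1A1, a collagen I chain, was higher in EHT in normoxia by 1.68 ± 0.32 (adjusted p = 0.00137; 0.35 with adjusted p = 0.426 under quantile normalization), and COL2A1, the cartilage collagen, was lower by -4.30 ± 0.60 (adjusted p = 1.4e-04). The interaction was lower for 1 chain. On the deposited values 2 chains were lower in EHT in normoxia and 1 in hypoxia, 1 fell in monolayer hypoxia, and 1 rose in EHT hypoxia. Of 17 other collagen chains 8 were higher and 4 lower in EHT in normoxia, 5 and 4 in hypoxia, 10 and 4 for hypoxia in monolayer, and 3 and 7 for the interaction. In EHT 5 of these rose in hypoxia, COL6A3, a collagen VI chain, by 1.98 ± 0.24 (adjusted p = 7.1e-05) among them. Without centring, 1 of the 17 was higher and 5 lower in EHT in normoxia, 3 and 2 in hypoxia, 4 and 4 for hypoxia in monolayer, and 4 and 2 for the interaction, so the balance turned for EHT in normoxia and for the interaction, and 3 rose in EHT hypoxia.

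Among 10 elastic fibre genes, the second substrate of the lysyl oxidases, 6 were higher and 2 lower in EHT in normoxia (median 1.01). ELN, elastin itself, was higher by 1.84 ± 0.36 (adjusted p = 0.00163) and LTBP2, a microfibril protein, by 5.64 ± 0.25 (adjusted p = 6.6e-08). In hypoxia 5 rose and 1 fell in monolayer, FBN1, fibrillin 1, by 2.04 ± 0.23 (adjusted p = 2.1e-05) and LTBP2 by 3.72 ± 0.25 (adjusted p = 3.8e-07). In EHT 1 rose, FBLN1, another elastic fibre protein, by 1.49 ± 0.28 (adjusted p = 0.00139), and 1 fell, LTBP2 by 1.15 ± 0.25 (adjusted p = 0.00333). LTBP2 had an interaction of -4.87 ± 0.35 (adjusted p = 1.9e-05), and the list gave 2 higher and 4 lower. Between formats in hypoxia 3 were higher and 2 lower in EHT. On the deposited values 2 were higher and 2 lower in EHT in normoxia (median 0.27), 1 was higher in hypoxia, 3 rose in monolayer hypoxia, 2 rose in EHT hypoxia, and 1 interaction was higher and 1 lower. ELN in normoxia (1.10, adjusted p = 0.0761) and LTBP2 in EHT hypoxia (-1.001, adjusted p = 0.188) did not pass there. Under quantile normalization 3 of the list rose and 3 fell in monolayer hypoxia.

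Of 14 collagen folding and export genes, 7 were higher in EHT in normoxia (median 0.72) and 8 rose in monolayer hypoxia (median 0.77). In EHT 4 rose in hypoxia (median 0.17), among them HSPA5, the chaperone BiP, by 2.21 ± 0.42 (adjusted p = 0.00147). Of the 14, 4 had a lower interaction (median -0.39). FKBP9, a prolyl isomerase of the endoplasmic reticulum, was higher in EHT in normoxia by 1.82 ± 0.18 (adjusted p = 1.0e-05) and had an interaction of -1.79 ± 0.25 (adjusted p = 4.6e-04). CREB3L1, a transcription factor that induces collagen and its export, was higher in EHT by 1.38 ± 0.15 in normoxia (adjusted p = 2.0e-05) and by 0.60 ± 0.15 in hypoxia (adjusted p = 0.0074), where 5 of the 14 were higher. Without centring, the calls of this list were 1 higher in EHT in hypoxia and 1 that rose in EHT hypoxia.

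Genes known to respond to low oxygen, a list chosen with earlier results of these data known, were higher in the hypoxia groups of both formats. Of 21 hypoxia-inducible genes other than the 8 enzymes, 20 rose in monolayer (median 2.83) and 20 in EHT (median 3.65), and on the deposited values 19 and 19. ERO1A, an oxidase of the endoplasmic reticulum, rose by 3.80 ± 0.19 in monolayer (adjusted p = 9.0e-08) and by 4.45 ± 0.19 in EHT (adjusted p = 3.9e-08), and HK2, a hexokinase, by 3.18 ± 0.18 (adjusted p = 1.5e-07) and 4.30 ± 0.18 (adjusted p = 3.9e-08). Between formats 1 of the 21 was higher and 10 were lower in EHT in normoxia, and 5 and 5 in hypoxia. The deposited values gave 10 lower in normoxia and 1 higher in hypoxia. The interaction was higher for 8 and lower for 1 of the 21 (median 0.51), and on the deposited values it was higher for 6. With centring the interaction was lower for 4 of the 8 collagen enzymes, and on the deposited values it was called for 0 of them. This difference in direction was described and not tested.

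Other dioxygenases that use oxygen, iron and 2-oxoglutarate were set beside the hydroxylases. Of 11, 7 rose and 2 fell in monolayer (median 1.20, against 0.07) and 7 rose and 1 fell in EHT (median 1.08). EGLN1, a prolyl hydroxylase of the hypoxia-inducible factors, rose by 2.48 ± 0.17 (adjusted p = 3.9e-07) and 2.73 ± 0.17 (adjusted p = 3.1e-07), and KDM3A, a histone demethylase, by 2.79 ± 0.16 (adjusted p = 1.6e-07) and 3.13 ± 0.16 (adjusted p = 9.5e-08). In EHT 1 was higher and 5 lower than in monolayer in normoxia, 2 and 4 in hypoxia, and the interaction was higher for 1. Without centring, 4 rose and 1 fell in monolayer and 5 rose in EHT, and 5 were lower in EHT in normoxia. Of 5 genes of ascorbate and iron supply, 2 were higher and 1 lower in EHT in normoxia, 1 was higher in hypoxia, 1 rose and 2 fell with hypoxia in monolayer, and 1 rose and 1 fell in EHT. Without centring, the single call of these 5 was 1 lower in EHT in normoxia.

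Of 12 genes of transforming growth factor beta signalling, an inducer of lysyl oxidases, 6 rose in monolayer hypoxia and 1 rose and 3 fell in EHT. TGFB1, the ligand, rose in monolayer by 2.82 ± 0.28 (adjusted p = 7.8e-06) and had an interaction of -2.70 ± 0.40 (adjusted p = 6.1e-04). The list gave 4 lower interactions (median -1.28), and 6 higher and 2 lower in EHT in normoxia and 3 and 3 in hypoxia. Without centring, 2 of the 12 were higher and 3 lower in EHT in normoxia, which turned the balance, and 1 and 2 in hypoxia. In that setting 3 rose in monolayer hypoxia, 1 fell in EHT hypoxia, and 2 interactions were lower.

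Across the 12 centred libraries the enzymes fell into patterns that are described by Pearson's r, without a test, since the libraries share groups. P4HA2 and PLOD2 ran closest together (r = 0.983), followed by P4HA2 and LOX (r = 0.930), P4HA1 and LOX (r = 0.926), PLOD2 and LOX (r = 0.924) and PLOD3 and LOXL2 (r = 0.924). LOXL1 ran against P4HA1 (r = -0.789). Among all genes tested, those most like P4HA2 were GBE1 (r = 0.993), BNIP3L (r = 0.991) and ALKBH5 (r = 0.988), and those most like PLOD2 were ALKBH5 (r = 0.989), GBE1 (r = 0.987) and GARS (r = 0.987). The nearest to P4HA1 was SLC25A36 (r = 0.992), to LOX RBMS2 (r = 0.987), to LOXL2 SLC12A4 (r = 0.985), to PLOD3 FXYD5 (r = 0.990) with BGN, the matrix proteoglycan biglycan, next (r = 0.987), to LOXL1 MRPL15 (r = 0.969) and to P4HA3 FBXO7 (r = 0.924).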

How the data were processed

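The authors deposited variance-stabilised log2 values, 1 per gene symbol and library. Per the submitters' processing notes, the authors used HISAT2, featureCounts and DESeq2. Versions, genome build and annotation: not given in the sources used here. No positions are printed. Inverting the transformation of the deposited values gave whole reads within 0.01 for 100% of values in every library. The filter kept 12084 genes, those with a mean of 1 or more log2 units over the lowest value, 3.00. The 12 centred libraries entered 1 limma fit (version 3.58.1, R 4.3.3) that gave every group its own mean and moderated the variances along their trend with expression. P-values of each of the 5 comparisons were adjusted by Benjamini-Hochberg, with a threshold of 0.05. Folds are 2 to the power of the log2 difference of centred values, and the transformation understates those of genes with few reads. Ratios were taken from recovered reads with a pseudocount of 1 and tested by exact permutation with scipy 1.17.1.

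The 9 genes and the 18 lists (11 pathway, 7 marker) were chosen with earlier results of these data known. All 9 were to be named, with up to 3 genes per list, direction and comparison with the smallest p, up to 2 per marker list, and the 3 genes most correlated with each member. A planned test of the enzyme to collagen ratio was left out, because it scores the chosen genes together, and a ratio with PLOD1 could not be formed. The alternatives were the deposited scale, quantile normalization, median-of-ratios scaled reads, voom, other filters, no trend, robust moderation, array weights, a replicate block, the compared groups alone, other pseudocounts, and leaving out each library or both EHT libraries numbered 3. The fit was also run on simulated reads with the same dispersion for every gene, a simpler setting than these data, and no result here rests on it. Figures were drawn with matplotlib 3.10.9.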

Additional observations from a re-analysis of the deposited data

Results flagged for a closer look

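The hypoxia responses of 4 enzymes differed between EHT and monolayer by the interaction in limma: P4HA3 by -1.88 (adjusted p = 0.0151), PLOD3 by -1.14 (adjusted p = 0.00131), LOXL1 by -1.01 (adjusted p = 0.00258) and LOXL2 by -2.21 (adjusted p = 0.00170), on the log2 scale with n = 3 libraries per group. Each was more negative in EHT. On the deposited values the 4 values were -1.18, -0.44, -0.31 and -1.51 and none passed (adjusted p = 0.314, 0.750, 0.831 and 0.171).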

How the results depend on the processing

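Of the 23 called results of the 8 enzymes, all 23 kept direction and call with median-of-ratios scaled reads, voom, both other filters, no trend, robust moderation, array weights and the replicate block. Quantile normalization kept 21, with 1 call in place of 2 for EHT in hypoxia, and the deposited values kept 10, with 2, 0 and 0 calls for EHT in normoxia, EHT in hypoxia and the interaction in place of 4, 2 and 4. Leaving out 1 library gave 1 to 2 calls for EHT in hypoxia. Over all genes the deposited values called 1553, 2945, 1128 and 1249 genes for EHT in hypoxia, hypoxia in monolayer, hypoxia in EHT and the interaction, in place of 4602, 5615, 4292 and 2956, and array weights called 4753 for the interaction. Higher and lower calls were 325 and 3099 on the deposited values, 2257 and 2884 with median-of-ratios scaling and 2554 and 3125 with voom for EHT in normoxia (2750 and 2234 with centring), and on the deposited values 535 and 2410 for hypoxia in monolayer (3362 and 2253), 858 and 270 in EHT (2360 and 1932) and 1147 and 102 for the interaction (1248 and 1708). The signs that reversed belonged to differences that had not been called, and the cause was not tested. On the deposited values these were P4HA2 (-0.52), P4HA3 (-0.064) and LOX (-0.35) for EHT in normoxia, PLOD3 (0.15) for hypoxia in EHT, and P4HA1 (0.34) and P4HA2 (0.70) for the interaction. Under quantile normalization they were P4HA2 for EHT in normoxia (-0.20) and the interactions of P4HA1 (0.37) and P4HA2 (0.54), which was also 0.0257 with median-of-ratios scaling, 0.0257 with voom and 0.0575 with the stricter filter. For EHT in hypoxia PLOD3 was -0.0011 and LOXL2 -0.14 without both EHT libraries numbered 3, and LOXL2 was -0.057 with array weights. Leaving out 1 library gave -0.0011 to 0.16 for PLOD3 and -0.14 to 0.23 for LOXL2 in that comparison, -0.14 to 0.60 for P4HA3 and -0.10 to 0.062 for PLOD3 for hypoxia in EHT, and -0.15 to 0.14 for the P4HA2 interaction. The replicate numbers were not taken as pairs, since same-numbered libraries correlated at -0.06 to 0.33 after subtraction of group means, not all over 0.1. The highest, 0.33 and 0.27, were those of replicates 2 and 3 between hypoxia and normoxia in EHT. Whether these libraries shared an origin was not tested. With the number as a block, the 6 ratio differences over both strata kept their values (0.70, -0.88, 1.87, 4.26, 1.22 and -1.30), and their exact permutation p could not pass by construction (adjusted p = 0.125). Without both EHT libraries numbered 3 they were 0.69, -0.81, 1.80, 4.10, 1.30 and -0.88. With fewer permutations they could not pass there either (adjusted p = 0.0667, exact permutation). In that setting LOX to LOXL1 for EHT in normoxia was 0.066. Leaving out 1 library gave -0.82 to 0.066 for that ratio, -0.47 to 0.029 for PLOD2 to PLOD3 in normoxia and -0.19 to 0.059 over both conditions, 1.05 to 1.47 for hypoxia in LOX to LOXL2, and -1.42 to -1.06 for EHT in LOX to LOXL2. Among the 8 enzymes, depth limits P4HA3 most, at 51 to 321 reads.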
